A study of Mus musculus with 48 samples.

Results

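The 10 apolipoprotein genes Apoa1, Apoa2, Apoa4, Apoa5, Apob, Apoc1, Apoc3, Apoe, Apoh and Apom were followed in mouse liver. They were found by symbol among the 24453 genes of an exon table and the 20771 genes of an intron table, and all 10 were in both. The study compared 2 genotypes on the C57BL/6 strain, wild type and nono-/-, at 14 weeks of age. The mice were kept under a 12 h:12 h light-dark cycle, and food had been limited to the dark phase for 1 week. Livers were taken every 2 h from ZT0 to ZT22, zeitgeber time (ZT) being the number of hours since the lights came on, and every liver sample pooled 2 mice and was split into a total RNA library and a nuclear RNA library. This gave 4 groups of 12 libraries, 48 in all, with 1 library per genotype, fraction and time. Nono encodes a nuclear RNA- and DNA-binding protein, and the sources used here do not give the kind of null allele.

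Apolipoproteins are the protein part of the particles that carry fat and cholesterol in blood. ApoB forms the backbone of the very-low-density lipoproteins that the liver secretes, ApoA1 and ApoA2 form high-density lipoproteins (HDL), and the smaller exchangeable proteins move between particles and steer lipases and receptors. Hepatocytes make most of them, the intestine is the other main source of ApoA4, and macrophages also make ApoE.

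The genes sit at 6 places in the mm10 genome, and none of the 10 overlaps another gene of the tables. Apoa1, Apoc3, Apoa4 and Apoa5 form a cluster on chromosome 9, at 46228630-46230469 (+), 46233050-46235299 (-), 46240844-46243458 (+) and 46268608-46271919 (+). Apoc1 and Apoe lie side by side on the minus strand of chromosome 7, at 19689480-19692659 and 19696244-19698621. Apoa2 is at chr1:171225054-171226379 (+), Apob at chr12:7977677-8016839 (+), Apoh at chr11:108395297-108414396 (+) and Apom at chr17:35128997-35131752 (-). Apob stands apart in size, with 13878 exon bases and 25226 intron bases, while the exons of the other 9 genes add up to 426 (Apoc1) to 2315 (Apoa5) bases.

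The 250 bases before the start of Apob, and of the 3 plus-strand genes of the chromosome 9 cluster, are shown because Apob was the member called higher in nuclear introns and the 3 cluster genes were among those called lower in nuclear exons, as described below. The letters come from RefSeq promoters of GRCm38.p6, which matched the start of the gene in the tables for 7 of the 10 genes. Capitals mark matches, on either strand, to TATAAA (the TATA box), AGGTCA (a nuclear receptor half-site), CAAAGG (part of the HNF4A site), CACGTG (an E-box) and TGACGT (a half-site for CREB-type factors).
Apoa5 (chr9:46268358-46268607, + strand): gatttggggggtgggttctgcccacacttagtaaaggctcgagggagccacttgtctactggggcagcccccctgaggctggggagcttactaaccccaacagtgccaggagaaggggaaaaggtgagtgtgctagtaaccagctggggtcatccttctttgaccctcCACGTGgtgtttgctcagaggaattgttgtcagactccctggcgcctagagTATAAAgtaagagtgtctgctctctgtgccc
Apob (chr12:7977427-7977676, + strand): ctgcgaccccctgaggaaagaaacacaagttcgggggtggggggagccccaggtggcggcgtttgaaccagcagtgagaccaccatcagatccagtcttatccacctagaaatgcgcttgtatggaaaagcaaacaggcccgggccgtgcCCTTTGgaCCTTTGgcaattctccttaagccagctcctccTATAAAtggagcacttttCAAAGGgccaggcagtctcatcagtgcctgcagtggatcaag
Apoa4 (chr9:46240594-46240843, + strand): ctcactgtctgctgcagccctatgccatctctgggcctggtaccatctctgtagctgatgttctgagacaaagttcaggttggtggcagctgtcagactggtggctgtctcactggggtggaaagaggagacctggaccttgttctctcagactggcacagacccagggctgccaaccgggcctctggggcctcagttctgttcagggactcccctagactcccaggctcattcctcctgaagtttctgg
Apoa1 (chr9:46228380-46228629, + strand): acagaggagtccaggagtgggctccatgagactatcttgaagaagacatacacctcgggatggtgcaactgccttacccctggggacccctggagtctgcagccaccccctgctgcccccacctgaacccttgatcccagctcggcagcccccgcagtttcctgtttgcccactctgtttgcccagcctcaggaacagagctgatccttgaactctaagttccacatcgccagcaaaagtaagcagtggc
Apoa5 holds TATAAA 31 bases and CACGTG 82 bases before its start. Apob holds TATAAA 60 bases before its start and 3 matches to CAAAGG, at 100, 92 and 42 bases before it. These motifs occur in 12.4% (TATAAA), 14.0% (AGGTCA), 17.6% (CAAAGG), 6.02% (CACGTG) and 6.47% (TGACGT) of all 32851 promoter stretches of that length. Apoa4 and Apoa1 hold none of the 5 in this window. The matched stretches of Apoe, Apoa2 and Apoh, not shown, hold 3, 1 and 1 matches. A match here is a description of the letters and not evidence of binding.

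The values are FPKM (fragments per kilobase, scaled to the library's mapped reads), so levels can be compared between genes. Depth, as estimated from the values, ran from 9.91 to 28.9 M reads per library. Nono itself checked the labels, with 8.74 to 10.7 FPKM in wild-type total RNA against 0 to 0.091 FPKM in nono-/- total RNA. By a fitted 24 h curve the clock genes peaked at near times in wild-type and nono-/- total RNA. Arntl peaked at ZT22.7 and ZT23.6 and Nr1d1 at ZT7.9 and ZT8, in that order. The single highest libraries were at ZT2 and ZT4 for Arntl and at ZT4 and ZT8 for Nr1d1. The 6 hepatocyte markers summed to 31891 to 48698 FPKM in wild-type and 34728 to 51634 FPKM in nono-/- total RNA. Libraries also differed in the balance of short and long genes, measured as the median log2 deviation of genes of up to 1000 exon bases minus that of genes of at least 5000. In total RNA this balance was -0.10 ± 0.12 (SD, n = 12) in wild type and 0.14 ± 0.25 (SD, n = 12) in nono-/- (permutation test, 2-sided, adjusted p = 0.0148, 8 measures tested). In nuclei the direction was opposite, with 0.15 ± 0.12 (SD, n = 12) in wild type and -0.05 ± 0.19 (SD, n = 12) in nono-/- (permutation test, 2-sided, adjusted p = 0.0147). The share of total RNA reads in introns was 22.1 ± 1.72% (SD, n = 12) in wild type and 18.5 ± 2.41% (SD, n = 12) in nono-/- (permutation test, 2-sided, adjusted p = 0.00592), the lowest p of the 8 measures. The genotype difference in nuclear exons of all genes had a median of -0.20 on the log2 scale in the values as deposited and 0.00 after scaling, and differences below are relative to the scaled libraries.

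In wild-type total RNA the apolipoprotein messages spanned from 57.9 to 6517 FPKM on average and took 4.60% to 5.64% of all exon reads of a library. The HDL protein gene Apoa2 was highest, with 4204, 6800 and 8002 FPKM as lowest, median and highest of 12 libraries. Apoc1, whose product inhibits lipoprotein uptake and lipases, ran from 2578 through 4430 to 5548 FPKM. Apoe, whose product serves in the clearance of lipoprotein remnants, ran from 2071 through 3637 to 4801 FPKM. Apoa1, the main HDL protein, ran from 2263 through 3234 to 4295 FPKM. Those 4 genes formed the upper tier. A middle tier held Apoh (1269, 1446 and 1722 FPKM), which encodes beta-2-glycoprotein I, Apob (1178, 1387 and 1598 FPKM) and Apoc3 (720, 1236 and 1593 FPKM), whose product inhibits lipoprotein lipase. Apoa5, an activator of triglyceride hydrolysis, had 98.1, 204 and 313 FPKM, and Apom, the carrier of sphingosine-1-phosphate on HDL, had 124, 180 and 220 FPKM. Apoa4 was lowest, with 10.1, 31.2 and 204 FPKM.

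Neighbours in this order were compared by an exact sign-flip permutation test over the 12 libraries (2-sided, adjusted over 9 pairs). Apoa2 exceeded Apoc1 by 0.60 ± 0.10 (SD, n = 12) on the log2 scale in 12 of 12 libraries (exact permutation test, adjusted p = 0.0011). Apoc1 exceeded Apoe by 0.25 ± 0.17 (SD, n = 12; exact permutation test, adjusted p = 0.0011), and Apoe exceeded Apoa1 by 0.16 ± 0.18 (SD, n = 12; exact permutation test, adjusted p = 0.0125). The steps from Apoa1 to Apoh, from Apoc3 to Apoa5 and from Apom to Apoa4 were 1.16, 2.61 and 2.20 on the log2 scale, and each passed the test. Within the middle tier Apoh and Apob differed by 0.05 ± 0.22 (SD, n = 12; exact permutation test, adjusted p = 0.440) and Apob and Apoc3 by 0.19 ± 0.37 (SD, n = 12; exact permutation test, adjusted p = 0.119). Apoa5 and Apom differed by 0.18 ± 0.37 (SD, n = 12; exact permutation test, adjusted p = 0.119). For these 3 pairs the order was within the spread of the libraries.

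**Figure D1:**
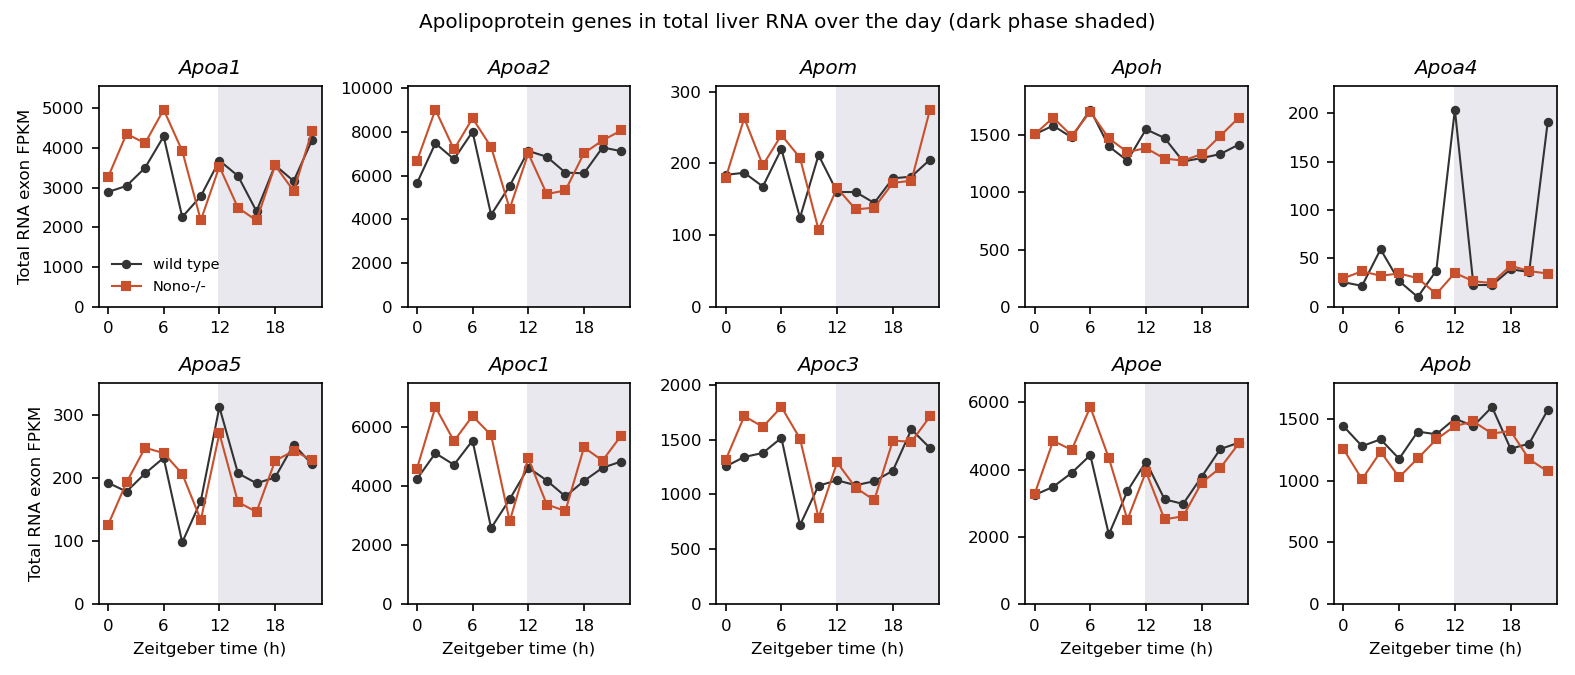
Total RNA exon level (FPKM, y axis from 0) of each apolipoprotein gene against zeitgeber time (h), with 1 point per library joined by lines, circles for wild type and squares for nono-/-. The 2 genotypes overlap for all 10 genes, and Apoa4 has 2 wild-type libraries, at ZT12 and ZT22, far above the other 10.

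In the nucleus the exon signal of all 10 genes was far lower than in total RNA of the same livers. Apoa2 had 82.0, 159 and 368 FPKM (lowest, median and highest) in wild-type nuclear exons, and Apob had 125, 144 and 217 FPKM. Apom had 2.22, 5.42 and 11.6 FPKM. On the log2 scale the nuclear over total ratio in wild type was between -5.61 (Apoe) and -2.75 (Apoa5), with a median of -4.94 over the 10 genes beside -1.32 over the 9871 genes tested. All 10 were lower in nuclei by limma at an adjusted p under 0.05, as were 81.7% of all genes, with 10% higher. Apob had the ratio second nearest to 0, at -3.31 ± 0.08 SE. Each fraction was normalised to its own reads, so the ratio compares shares of 2 RNA pools and not molecules per cell.

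The question of whether loss of Nono changes apolipoprotein messages was first asked in total RNA exons. No gene of the 10 passed the test, and the members' median difference was 0.04 on the log2 scale beside 0.00 over 11352 genes. By limma with Benjamini-Hochberg adjustment, loss of Nono gave 4.49% of all genes a higher and 6.57% a lower level, and 1 of the 10 genes had an unadjusted p under 0.05. That gene was Apob. Its level ran from 1178 through 1387 to 1598 FPKM in wild type and from 1011 through 1245 to 1480 FPKM in nono-/-, and the groups overlapped. The log2 difference of Apob was -0.18 ± 0.07 SE (limma adjusted p = 0.0982), with nono-/- lower at 9 of 12 times.

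For the other members the 95% intervals gave the range of differences around the fit. Apoh, among the most even genes with a coefficient of variation of 9.53% in wild type beside 9.20% for Apob, differed by 0.00 with a 95% interval of -0.11 to 0.11 on the log2 scale. For Apoa1, Apoa2, Apoc1, Apoc3, Apoe and Apom the differences lay between 0.03 and 0.14, and the upper end of their intervals reached at most 0.35 (Apoc1). All 6 turned sign with the short-against-long balance of each library as a covariate, to -0.13 (Apoc3) to -0.23 (Apom), which lay below the lower ends of their intervals, and none passed. Apob was then at 0.0063. With the share of intron reads as a covariate the 6 lay between -0.018 (Apoc3) and -0.088 (Apom). Apoa5 differed by -0.04 with an interval of -0.32 to 0.24. Apoa4 had a difference of -0.35 ± 0.36 SE and the widest interval, from -1.10 to 0.39, so even sizeable changes of this gene were not detectable. In bulk tissue, fewer cells of a type and less RNA per cell cannot be told apart.

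In nuclear exons, 9 of the 10 genes had values below 0 and 4 were lower in nono-/- by limma, beside 18.5% of all 10500 genes lower and 15.9% higher. The members' median was -0.38. The log2 differences are scaled, while the FPKM values and the counts of libraries are as deposited. On the deposited scale the median difference of all genes was -0.20, so library counts below wild type include that shift. Apoa1 had 51.2, 125 and 242 FPKM (lowest, median and highest) in wild type and 32.8, 89.9 and 121 FPKM in nono-/-, and all 12 nono-/- libraries lay below the wild-type median. Its log2 difference was -0.44 ± 0.14 SE (limma adjusted p = 0.0251). Apoa5 ran from 21.6 through 30.6 to 65.8 FPKM in wild type and from 7.75 through 16.9 to 48.2 FPKM in nono-/-. The Apoa5 difference was -0.54 ± 0.17 SE (limma adjusted p = 0.0189), and 7 nono-/- libraries lay below every wild-type library. Apoe ran from 34.9 through 79.9 to 198 FPKM in wild type and from 12.4 through 47.7 to 93.3 FPKM in nono-/-, a difference of -0.50 ± 0.19 SE (limma adjusted p = 0.0467). Apoa4 ran from 0.389 through 1.44 to 8.29 FPKM in wild type and from 0.042 through 0.55 to 1.92 FPKM in nono-/-, a difference of -1.20 ± 0.40 SE (limma adjusted p = 0.0260).

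Wild-type and nono-/- values overlapped for each of these 4 genes. The nuclear Apoa4 values rest on few reads, with a median of 17.5 in nono-/- libraries and 2 reads in the lowest. None of the 4 calls was kept when the short-against-long balance of each library entered the model, a setting added after the data were seen. The differences of Apoa1 and Apoe were then 0.030 and 0.21, those of Apoa5 and Apoa4 were -0.30 and -0.31, and 5 of all 10500 genes passed. With the share of intron reads as a covariate the 4 differences were -0.17 (Apoe) to -0.56 (Apoa4) and none passed. Leaving out 1 time point in both genotypes left between 1 and 8 members lower, with 1 when ZT6, ZT10, ZT18 or ZT22 was left out and 8 without ZT0. Markers of pancreatic acinar cells also moved in nuclear exons, with 2 of 4 lower in nono-/- and sums of 0.051 to 28.1 FPKM in wild type and 0.087 to 11.7 FPKM in nono-/-, and their part in these differences was not tested. Of 5 tested Kupffer cell markers 4 were higher in nono-/- nuclear exons, with a median of 0.51 and sums of 11.2 to 35.95 FPKM in wild type and 15.3 to 34.9 FPKM in nono-/-. Of 5 stellate cell markers 1 was higher and 2 were lower, with sums of 14.2 to 43.0 FPKM in wild type and 12.8 to 31.1 FPKM in nono-/-. The part of either cell type was not tested.

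Apob moved the other way. Its nuclear exons had nearly the same mean as deposited, 154 ± 31.2 (SD, n = 12) FPKM in wild type and 154 ± 23.9 (SD, n = 12) FPKM in nono-/-, and the scaled difference was 0.21 ± 0.09 SE (limma adjusted p = 0.0790). Its nuclear introns, which stand mostly for unspliced transcripts, ran from 19.8 through 25.7 to 47.7 FPKM in wild type and from 28.4 through 41.3 to 52.3 FPKM in nono-/-. All 12 nono-/- libraries lay above the wild-type median. The log2 difference was 0.47 ± 0.12 SE, or 1.39-fold (limma adjusted p = 0.0102), with nono-/- higher at 10 of 12 times. Of all 12055 genes with intron signal, 8.48% were higher and 9.46% lower in nono-/-, and Apob was the 1 member that was higher.

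The Apob introns were read deeply, with a median of 12693 reads per wild-type and 23109 per nono-/- nuclear library. The wild-type libraries split by time. From ZT0 to ZT12 the 7 libraries held 19.8 to 25.8 FPKM, and from ZT14 to ZT22 the 5 libraries held 32.8 to 47.7 FPKM, with no overlap. In nono-/- the same times held 28.4 to 52.3 FPKM and 39.4 to 46.98 FPKM, which overlapped. This split was made after the values were seen, and the share of all genes that separate this way was not counted. The dark-light test counts ZT0 as dark. Wild-type ZT0 held 25.5 FPKM, so under that definition the wild-type dark and light values overlap. The dark-light difference was 0.54 ± 0.18 SE in wild type (limma adjusted p = 0.0391, 8.47% of all genes higher) and 0.16 ± 0.18 SE in nono-/- (limma adjusted p = 0.571, 8.27% of all genes higher). The test of whether the dark-light difference depends on genotype gave -0.38 ± 0.25 SE (limma adjusted p = 0.976), so a difference in daily pattern was not shown. The genotype difference of Apob introns stayed between 0.43 and 0.54 when any 1 time point was left out and passed each time (highest limma adjusted p = 0.0357). With the short-against-long balance as a covariate it was 0.43 and did not pass (limma adjusted p = 0.236), where 21 of all genes passed.

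**Figure D2:**
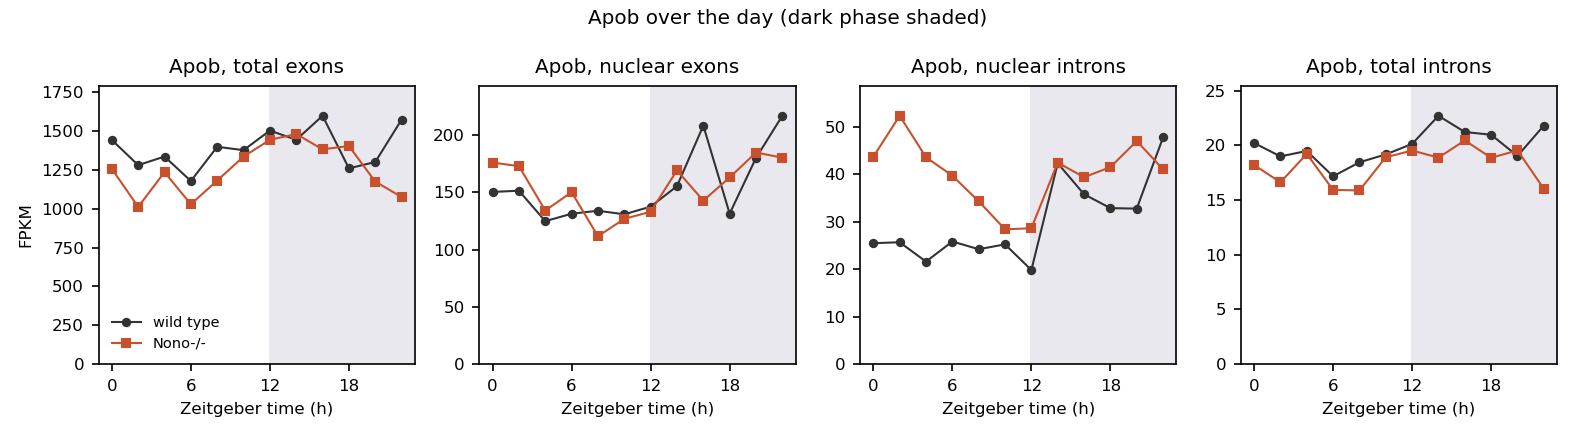
Apob level (FPKM, y axes from 0) against zeitgeber time (h) in total exons, nuclear exons, nuclear introns and total introns, with 1 point per library, circles for wild type and squares for nono-/-. In nuclear introns the wild-type points stay at 19.8 to 25.8 FPKM up to ZT12 and lie at 32.8 to 47.7 FPKM from ZT14, while nono-/- points lie above 28 FPKM throughout.

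Apoa1 and Apom were lower in nuclear introns. Apoa1 introns ran from 11.5 through 36.3 to 64.2 FPKM in wild type and from 13.4 through 23.5 to 42.9 FPKM in nono-/-, a difference of -0.64 ± 0.21 SE (limma adjusted p = 0.0428). Apom introns ran from 1.06 through 1.46 to 2.61 FPKM in wild type and from 0.679 through 1.19 to 1.81 FPKM in nono-/-, a difference of -0.32 ± 0.11 SE (limma adjusted p = 0.0403). Both groups overlapped, and both calls were lost with no filter on low values, with a 12 h term in the daily curve and with the intron share or the short-against-long balance as a covariate. Neither gene passed when ZT2, ZT6, ZT10, ZT12, ZT16, ZT18, ZT20 or ZT22 was left out.

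Total RNA introns gave 1 call. Apoc1 introns had 21.98, 31.9 and 39.8 FPKM in wild type and 23.8, 40.0 and 50.6 FPKM in nono-/-, and 6 nono-/- libraries lay above every wild-type library. The difference was 0.45 ± 0.14 SE (limma adjusted p = 0.0319), beside 7.11% of 9422 genes higher and 8.87% lower. It was -0.055 with the intron share of the libraries as a covariate and -0.018 with the short-against-long balance. No member passed when ZT0, ZT2, ZT4, ZT8, ZT12, ZT14 or ZT18 was left out, and 4 passed without ZT10. Intron values of Apoa2 need care, since its exon and intron entries come from different transcripts and at least 113 bases are counted in both. Apoa2 total RNA introns had a median of 1270 FPKM in wild type, against 51.9 FPKM in nuclear RNA. The exon and intron entries of Apoc1, Apoc3 and Apoe also come from different transcripts. Apoc1 introns too had a higher wild-type median in total RNA (31.9 FPKM) than in nuclei (8.83 FPKM). Apoe, Apom and Apoc3 did so as well, while Apoa1, Apoa4, Apoa5, Apob and Apoh had lower medians in total RNA. The reason was not tested.

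The nuclear over total exon ratio set both fractions of a liver side by side. Apob had a higher ratio in nono-/- by 0.40 ± 0.11 SE (limma adjusted p = 0.0197), and Apoa4 (-0.85), Apoc3 (-0.51), Apoa5 (-0.50) and Apoa1 (-0.49) had lower ones with limma adjusted p of 0.0325 to 0.0440. Among all genes 10.8% had a higher and 9% a lower ratio. With the time point as a block in place of the daily curve 1 member, Apoa1, was lower and none higher. Leaving out ZT2, ZT6, ZT8, ZT18, ZT20 or ZT22 gave 0 members with a lower ratio, and leaving out ZT0 gave 8. The ratio of total exons to nuclear introns was lower for Apob in nono-/- by -0.65 ± 0.13 SE, or 1.57-fold (limma adjusted p = 0.00697), at 10 of 12 times, beside 4.97% of all genes lower and 2.77% higher. That value was -0.33 with the short-against-long balance of both libraries as covariates (limma adjusted p = 0.497).

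**Figure D3:**
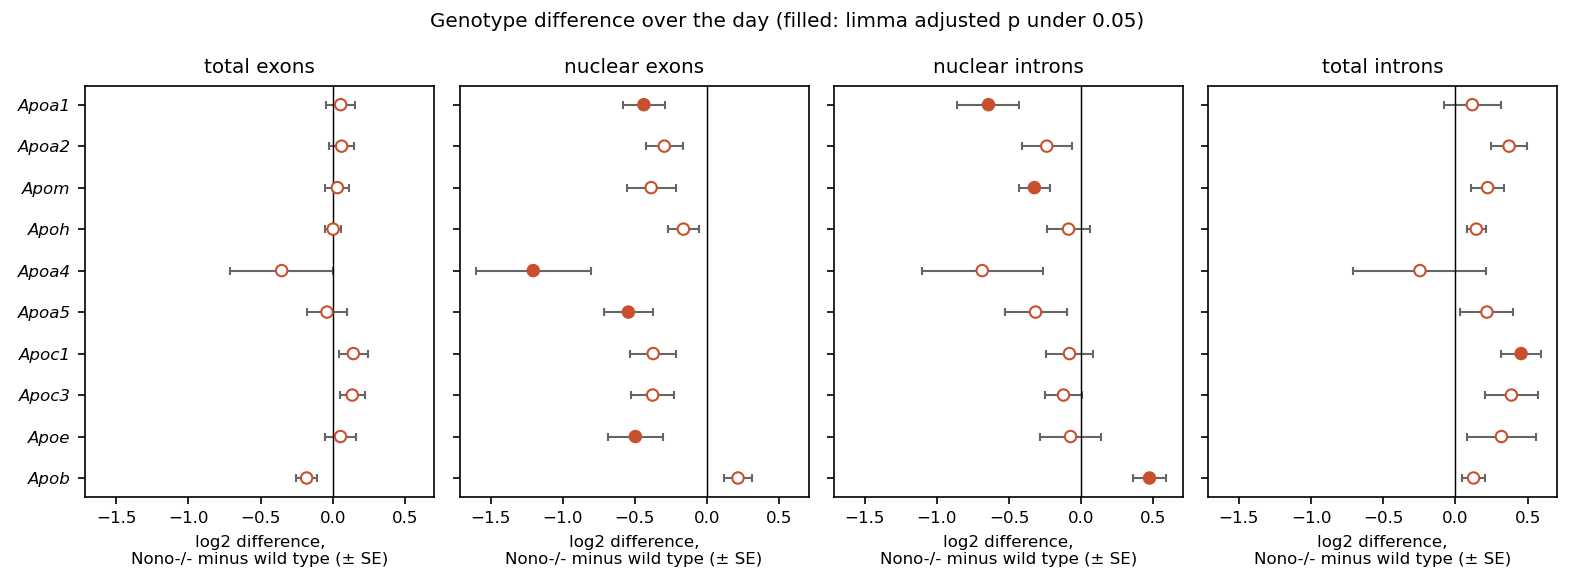
Log2 difference between nono-/- and wild type (x axis, ± SE from limma, 24 libraries per panel) for the 10 genes in 4 readouts, with filled points for adjusted p under 0.05. No point is filled in total exons, and in nuclear introns Apob lies at 0.47 while the other 9 lie below 0.

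The daily course was examined next, as the peak-to-trough range of a 24 h curve. In wild-type total exons none of the 10 genes passed the limma F test, although 31.8% of all genes did, and 1 member had an unadjusted p under 0.05. That gene was Apoc3, with a range of 0.50 on the log2 scale and a peak at ZT23.0 (limma adjusted p = 0.0725). The members' median range was 0.30, beside 0.47 over all genes. In nono-/- total exons 6 of 10 passed (29.6% of all genes), namely Apom, Apoc3, Apob, Apoa1, Apoc1 and Apoe. Apom had the largest range at 0.74 (limma adjusted p = 0.00734) with a peak at ZT1.3. Apoa1, Apoc1, Apoc3 and Apoe peaked between ZT1.2 and ZT2.8, and Apob alone peaked at ZT14.4, with a range of 0.49 (limma adjusted p = 0.0317).

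The difference in rhythm between genotypes passed for none of the members and for 0% of all genes in total exons, nuclear exons or nuclear introns, so the larger count in nono-/- is not a shown difference. At an unadjusted p under 0.05 none of the members and 1210 of 11352 genes differed in total exons. The 6 calls in nono-/- fell to 0 with the short-against-long balance as a covariate and to 0 with a 12 h term, and lay between 1 and 7 when 1 time point was left out, with 1 without ZT2, ZT14 or ZT16. In wild type the balance as a covariate gave 1 call, Apoc3, with a range of 0.42 (limma adjusted p = 0.0350), and the share of all genes called with it is not given here.

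Rhythms in nuclear RNA were counted in the same way. Apoc3 was the 1 member with a rhythm in wild-type nuclear exons (range 1.10, peak at ZT20.0, limma adjusted p = 0.0483, 10.7% of all genes) and in wild-type nuclear introns (range 0.97, peak at ZT19.9, limma adjusted p = 0.0262, 21% of all genes). The exon call was lost without ZT4, ZT8, ZT10, ZT12, ZT14, ZT16, ZT20 or ZT22 (limma adjusted p up to 0.192), with no filter, with no scaling, with a 12 h term and with the short-against-long balance, where the range was 0.47. The intron call was lost without ZT8, ZT10 or ZT20 (limma adjusted p up to 0.118), with a 12 h term and with the balance. In nono-/- 6 members passed in nuclear exons (31.1% of all genes) and 5 in nuclear introns (32% of all genes). Apoc3 exons had 17.9, 41.1 and 86.9 FPKM as lowest, median and highest value in wild-type nuclei, at ZT8 for the lowest and ZT22 for the highest.

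Dark and light libraries were then compared over both genotypes, counting ZT14 to ZT0 as dark. No member differed in total exons (10.2% of all genes higher and 9.23% lower in the dark), and none had an unadjusted p under 0.05. In nuclear exons Apoc3 (0.77 ± 0.16 SE, limma adjusted p = 0.00115), Apoa2 (0.58 ± 0.15 SE, limma adjusted p = 0.00585), Apoc1 (0.61 ± 0.18 SE, limma adjusted p = 0.0151) and Apom (0.49 ± 0.18 SE, limma adjusted p = 0.0422) were higher in the dark, beside 11.8% of all genes higher and 13.2% lower. In nuclear introns Apom (0.51 ± 0.11 SE, limma adjusted p = 0.000912), Apoc3 (0.49 ± 0.14 SE), Apoa2 (0.66 ± 0.19 SE) and Apob (0.35 ± 0.13 SE, limma adjusted p = 0.0342) were higher, beside 17.4% of all genes higher and 17.8% lower. The Apom exon call held only without ZT0, ZT10 or ZT18 among the 12 fits that left out 1 time point (limma adjusted p up to 0.120), and the Apob intron call only without ZT0, ZT2 or ZT18 (limma adjusted p up to 0.0985). With the short-against-long balance as a covariate the 4 nuclear exon calls were lost and 2 others appeared, and of the 4 nuclear intron calls Apob passed. Apoa5 was then lower in the dark by -0.81 in nuclear exons (limma adjusted p = 0.00762) and by -0.81 in nuclear introns (limma adjusted p = 0.0247). Apob was higher by 0.43 in nuclear exons (limma adjusted p = 0.00942) and by 0.52 in nuclear introns (limma adjusted p = 0.0165). The shares of all genes higher or lower in the dark with this covariate are not given here, so these calls have no background beside them.

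Apoa5 had its highest value at ZT12 in both genotypes and in every readout. Total exons reached 313 FPKM in wild type, where the other 11 libraries had a median of 201 FPKM, and 271 FPKM in nono-/-, where the others had a median of 207 FPKM. Nuclear exons reached 65.8 and 48.2 FPKM, which were 2.16 and 3.07 times the median of the other libraries. Nuclear introns reached 47.2 and 51.9 FPKM in the 2 genotypes, or 1.86 and 2.43 times that median. These are single libraries picked for being highest, so no test was made.

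Apoa4 was the most variable member, with a coefficient of variation of 115% in wild-type total exons, and 2 wild-type livers set it. The pools at ZT12 and ZT22 held 204 and 191 FPKM, and the other 10 held 10.1 to 59.4 FPKM with a median of 26.0. Nuclear exons of the same 2 livers held 7.96 and 8.29 FPKM against 0.389 to 2.71 FPKM in the others, and nuclear introns 2.61 and 1.44 FPKM against 0.195 to 0.91 FPKM. The nono-/- total RNA held 13.2 to 42.5 FPKM at all times, with 35.0 FPKM at ZT12. In nono-/- nuclei ZT12 was the highest library as well, with 1.92 FPKM in exons and 1.06 FPKM in introns, or 3.74 and 3.46 times the median of the other 11.

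Apoa4 is also an intestinal gene, so enterocyte markers were read in the same libraries. Of the 4 markers, Sis was at 0 in all 12 wild-type total RNA libraries, Lct was at 0 in both high ones, and Vil1 was at 0.124 and 0.19 FPKM there. Fabp2 was at 112 FPKM at ZT12 and 66.8 FPKM at ZT22, against 40.6 to 65.6 FPKM in the others. The marker sum was 112 and 67.0 FPKM in the high libraries against 40.7 to 65.7 FPKM in the other wild-type ones. In nono-/- total RNA the sum ran from 43.1 through 69.8 (median) to 85.8 FPKM, while Apoa4 was at 13.2 to 42.5 FPKM. The part of Fabp2 in the Apoa4 values was not tested.

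**Figure D4:**
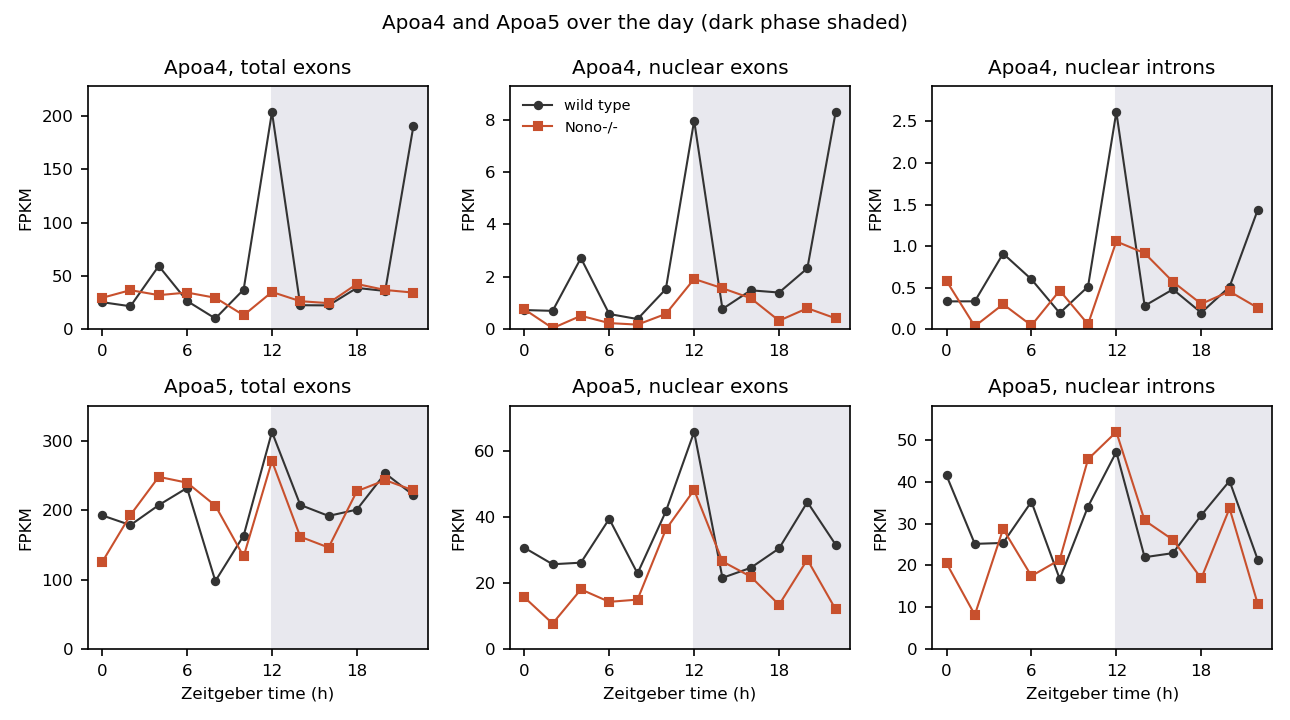
Apoa4 (top) and Apoa5 (bottom) in FPKM (y axes from 0) against zeitgeber time (h) in total exons, nuclear exons and nuclear introns, with 1 point per library, circles for wild type and squares for nono-/-. In total exons Apoa4 lies above 190 FPKM at ZT12 and ZT22 in wild type and at 42.5 FPKM or less in nono-/-, whose nuclear values are highest at ZT12, and Apoa5 is highest at ZT12 in both genotypes.

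Most members went up and down together over libraries, and Apob went against them. Over the 24 total RNA libraries Pearson's r was 0.94 between Apoa2 and Apoc1, 0.93 between Apoc1 and Apoc3 and 0.87 between Apoa1 and Apoe, and it was -0.78 between Apob and Apom and -0.75 between Apob and Apoc1. These values describe libraries that share depth and handling. In wild type 8 of the 10 genes had their lowest total exon value at ZT8 and 8 had their lowest nuclear exon value at ZT8. In nono-/- 6 had their lowest total exon value at ZT10 and 8 their lowest nuclear exon value at ZT2. These are values as deposited, and the median gene was low in the same libraries. The scaling factor was the lowest of its group in each, at 0.917 (total) and 0.895 (nuclear) in wild type. In nono-/- it was 0.893 (total) and 0.682 (nuclear). The share of all genes lowest in these libraries was not counted. Those 4 libraries had the lowest or next to lowest short-against-long balance of their groups, between -0.43 and -0.10.

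The relation of each member to that balance was therefore measured, as 30 relations of 10 genes in 3 readouts over 24 libraries each. In nuclear exons the short gene Apoc3 had r = 0.93 and Spearman's rho = 0.88 (permutation test, adjusted p = 3.33e-05, from a raw p of 1e-05 that is the smallest the permutations can give), 0.89 without the 2 farthest libraries, and 0.93 and 0.96 within wild type and nono-/-. Apoc1, Apoa2, Apom, Apoa1 and Apoe had r of 0.85 to 0.89 in nuclear exons. Apoh had r = 0.24 and rho = 0.33 there (permutation test, adjusted p = 0.278). In total exons the long gene Apob had r = -0.84 and rho = -0.83 (permutation test, adjusted p = 3.33e-05), -0.78 without the 2 farthest libraries, and -0.84 and -0.80 within wild type and nono-/-. In nuclear introns Apob had r = -0.28 and rho = -0.10 (permutation test, adjusted p = 0.213). Within the genotypes the signs differed there, with r = 0.64 in wild type and -0.38 in nono-/-. As a covariate the balance has the same slope in both genotypes, so it does not follow such a difference. By Pearson's r the balance moved with 7 of the 10 genes in total exons and 8 in nuclear exons (permutation test, adjusted p under 0.05). The share over all genes was not computed, so these counts are not a result about the members. Among the 8, Apoa5 had r = 0.21 without the 2 farthest libraries and did not pass by Spearman's rho (permutation test, adjusted p = 0.111). The balance also differed between genotypes. The balance is computed from other genes of the same libraries, so as a covariate it also takes up differences that go with genotype. Its part in the genotype differences therefore cannot be told apart from that of the genotype, also where a call was lost or a sign turned.

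**Figure D5:**
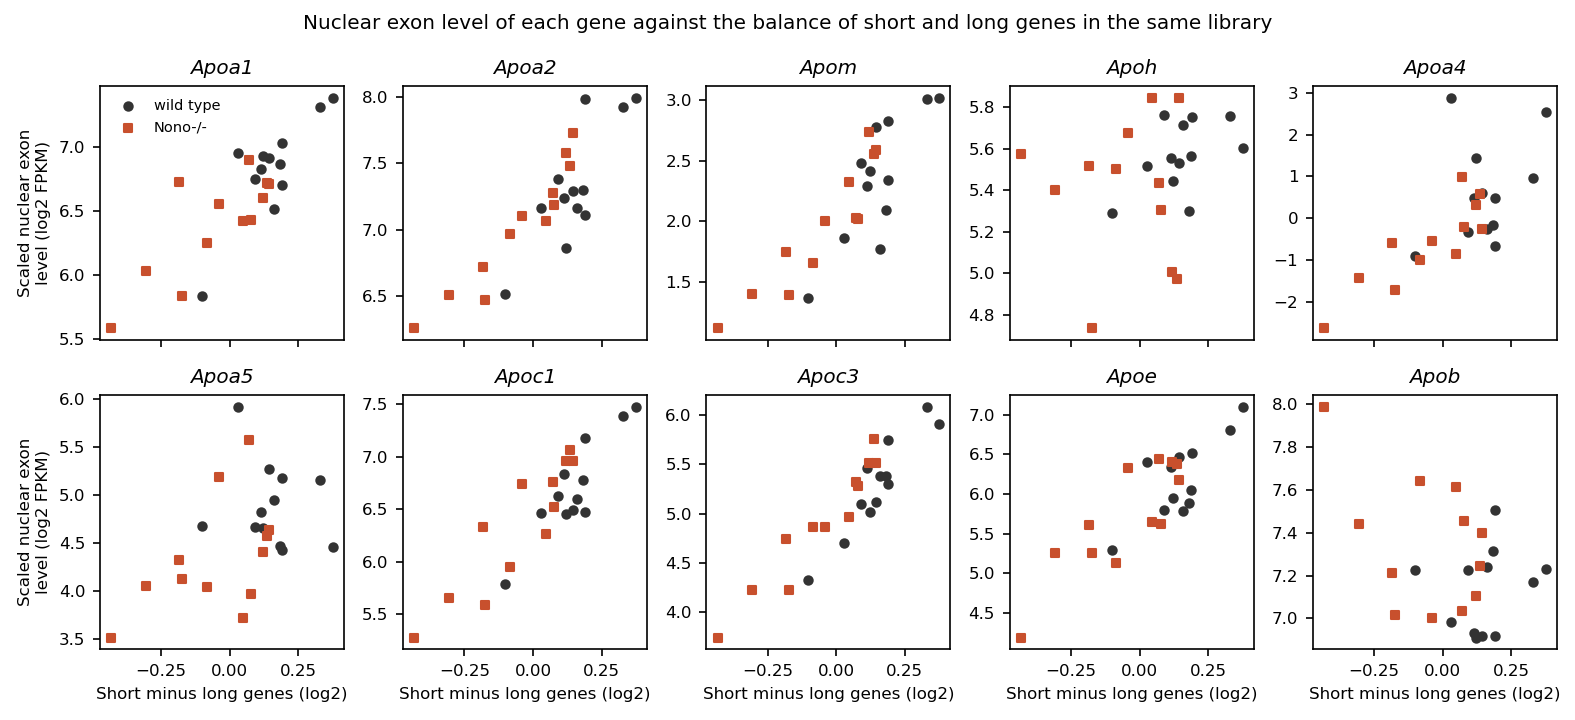
Scaled nuclear exon level (log2 FPKM, y axis) of each gene against the short-against-long balance of the same library (log2, x axis), with 1 point per library, circles for wild type and squares for nono-/-. Points of Apoc3, Apoc1, Apoa2 and Apom rise together along the x axis in both genotypes, while Apoh has r = 0.24 and Apob r = -0.42, which is -0.028 without the 2 farthest libraries.

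The genes most like each member over the 24 total RNA libraries were found by Pearson's r of scaled log2 exon values. These r pool both genotypes and were not adjusted for the short-against-long balance, with which most members moved in total exons. The part of the balance in the likeness was not tested. Apoe was nearest to Proc (0.96), Ddrgk1 (0.95) and Fxyd1 (0.95), and Apob to Lmbrd2 (0.96), Atp13a3 (0.92) and Usp34 (0.91). Apoc1 was nearest to Rarres2 (0.94), Apoa2 (0.94) and Apoc3 (0.93), and Apoc3 to Psmb5 (0.93), Apoc1 (0.93) and Haao (0.93). Among the genes most like Apoa2 were Apoc1 (0.94) and Sdf4 (0.92). Apom was nearest to Rpl37 (0.92), Snx22 (0.91) and Ppib (0.90), and among the genes most like Apoa1 were Rps14 (0.88) and Mrpl54 (0.88). Apoa4 was nearest to Gpc1 (0.86), Atp9a (0.73) and Klhdc3 (0.73), Apoa5 to Tcf25 (0.85), Pink1 (0.85) and Arl6ip4 (0.85), and Apoh to Nqo2 (0.76), Taz (0.76) and Nipsnap1 (0.75).

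Genes within 50 kb were read for the chromosome 9 cluster. Zpr1, 1145 bases from Apoa5, was lower in nono-/- total exons (12.1 ± 4.34 against 8.59 ± 1.72 FPKM, SD, n = 12 each) by -0.46 ± 0.12 SE (limma adjusted p = 0.0178), and Bud13 by -0.46 ± 0.13 SE (limma adjusted p = 0.0291). Sik3, on the other side of Apoa1, had -0.35 ± 0.12 SE (limma adjusted p = 0.0595). Near Apoc1 and Apoe, Apoc2 (0.03), Apoc4 (0.21), Tomm40 (0.11), Clptm1 (-0.12) and Pvrl2 (-0.14) did not pass in total exons.

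Other genes of the pathway were taken from lists, whose counts stand beside the 4.49% of all genes that were higher and the 6.57% that were lower in nono-/- total exons. Of 17 other apolipoprotein genes 11 could be tested in total exons, and 1, Apol9a, was higher in nono-/- (0.57 ± 0.18 SE, limma adjusted p = 0.0476). Their median was 0.21. Of 12 assembly and secretion genes 1 was lower, A1cf, the partner of the Apob messenger RNA editing enzyme (-0.31 ± 0.09 SE, limma adjusted p = 0.0317), and the median was -0.07. Of 9 lipase genes 1 was higher, Lpl, lipoprotein lipase (0.86 ± 0.15 SE, limma adjusted p = 0.00225). Of 8 HDL and sterol export genes none passed, and the median was -0.03.

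Of 21 transcription factors of apolipoprotein genes 5 were lower in nono-/- total exons and none higher, beside 6.57% of all genes lower and 4.49% higher, with a median of -0.21 beside 0.00 over all genes. The first 4 by p were Foxo1 (-0.46 ± 0.10 SE), Ppara (-0.29 ± 0.08 SE), Mlxipl (-0.46 ± 0.12 SE) and Hnf4a (-0.23 ± 0.07 SE), with limma adjusted p of 0.00866 to 0.0300, and the fifth, named after its values were seen, was Srebf2 (-0.49 ± 0.15 SE, limma adjusted p = 0.0435). Hnf4a, a main hepatocyte regulator of these genes, was also lower in nuclear exons (-0.59 ± 0.11 SE, limma adjusted p = 0.00162) and nuclear introns (-0.60 ± 0.11 SE, limma adjusted p = 0.00231). With the short-against-long balance as a covariate 103 of all 11352 genes passed in total exons in place of 1256. Whether the 5 factors, or the genes named from the other lists, were among these 103 is not given here. Among cell type markers, 5 of 6 Kupffer cell markers were higher in nono-/- total exons, beside 4.49% of all genes, with sums of 54.4 to 151 FPKM in wild type and 75.5 to 184 FPKM in nono-/-. Apoe, which these macrophages also make, had a difference of 0.05 ± 0.10 SE there, and the part of Kupffer cells in it was not tested.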

How the data were processed

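Exon and intron FPKM per gene were deposited by the authors for 48 libraries. Per the file headers they come from HOMER analyzeRepeats (mm10, exons or introns, 1 entry per gene after condensing), with no strand option named, and the sources used here do not give its version. Reads were handled with FastQC 0.11.2 and STAR 2.4.0k, per the submitters' processing notes. Per the labels' protocols the libraries were stranded total RNA after ribosomal RNA removal. Depths of 9.91 to 28.9 M reads are estimates, fitted to the even steps between the lowest FPKM values multiplied by gene length. All read counts of single genes follow from these estimates. Intervals cover the spread of libraries and not the mice within a pool. No 2 of the 1128 library pairs were identical, and 0 columns of values were left unused.

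Values were divided by a median-ratio factor per library and tested as log2(FPKM + 0.1) for exons or log2(FPKM + 0.05) for introns, so fold changes of low genes are understated. Exon values averaging 0.5 FPKM or more and intron values averaging 0.1 FPKM or more entered limma 3.58.1 in R 4.3.3, with a 24 h cosine and sine per genotype, Benjamini-Hochberg adjustment over all genes and a threshold of 0.05. Time points served as replicates around the curve. Tests on simulated data used the same code, and tables and figures used Python 3.11.15, numpy 2.4.6, pandas 2.3.3 and matplotlib 3.10.9. Ratios set against 0 compare each fraction's own scaled values, not the median gene. The labels used here link samples of both genotypes by the time of day alone. Deviations of same-time libraries from their group means correlated at 0.144 to 0.563 in total exons and 0.0561 to 0.555 in nuclear exons. The daily curve was not taken out of these deviations, so the values cannot tell whether anything besides the time of day was shared.

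The members and lists were chosen with earlier results of these data known. Named were all 10 members, at most 4 list genes each way by smallest p (Srebf2 was added after its values were seen), the 3 genes nearest each member, genes within 50 kb and the check genes. Some genes that this rule names, and the list of receptor and uptake genes, are not reported here. The short-against-long and exon share covariates, and the splits of single times for Apob, Apoa4 and Apoa5, were added after the data were seen. Other alternatives were pseudocount, filter, scaling, a 12 h term, the time point as a block, intron share and leaving out each time point.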

Additional observations from a re-analysis of the deposited data

Results flagged for a closer look

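The change of the nuclear share of a message between genotypes was tested directly, as the genotype difference of the log2 nuclear over total exon ratio in limma, and 5 of the 10 genes passed. Apob had a ratio higher by 0.40 in nono-/- (limma adjusted p = 0.0197, higher at 9 of 12 times). Apoa4 was lower by -0.85 (limma adjusted p = 0.0325, at 9 of 12 times), Apoc3 by -0.51 (limma adjusted p = 0.0426, at 9 of 12 times), Apoa5 by -0.50 (limma adjusted p = 0.0365, at 9 of 12 times) and Apoa1 by -0.49 (limma adjusted p = 0.0440, at 10 of 12 times). Among all genes 10.8% had a higher and 9% a lower ratio. With the time point as a replicate block Apoa1 passed (limma adjusted p = 0.0443) and the other 4 did not (limma adjusted p of 0.0525 to 0.0733). Leaving out 1 time point ended the call in 9 of 12 fits for Apoa1, 8 for Apoc3, 7 each for Apoa4 and Apoa5 and 4 for Apob. None of the 5 passed with the short-against-long balance of the libraries as covariates.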

How the results depend on the processing

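Counts of members past the threshold depended on the model, and the cause was not tested. The shares of all genes called under each setting are not given beside these counts, so the counts do not set members apart from other genes. Lower in nuclear exons (4): 9 unscaled, where the median difference of all genes was -0.20, 0 with intron share, exon share or the short-against-long balance. Without 1 time point it was 1 to 8, where the count of higher genes was 0 to 1. Lower in nuclear introns (2): 0 unfiltered, 1 unscaled, 0 with a 12 h term or any of the 3 covariates, 0 to 2 without 1 time point. Higher in nuclear introns (1, Apob): 0 with the balance. Higher in total introns (1): 2 with the larger pseudocount or the stricter filter, 0 unfiltered, unscaled, with a 12 h term, intron share or the balance, 0 to 4 without 1 time point. Wild-type rhythm was called for 1 member in total exons with the balance (0 otherwise) and for 0 to 1 without 1 time point. For nuclear exons (1) it was 2 with the stricter filter, 0 unfiltered, unscaled, with a 12 h term or the balance, and 0 to 3 without 1 time point. For nuclear introns (1) it was 0 with a 12 h term or the balance and 0 to 3 without 1 time point. Rhythm in nono-/- total exons (6) was called for 1 unfiltered, 2 unscaled, 0 with a 12 h term or the balance, and 1 to 7 without 1 time point. In nuclear exons (6) it was 2 unfiltered, 3 unscaled, 0 with a 12 h term, 3 with the balance, and 1 to 7 without 1 time point. In nuclear introns (5) it was 2 unfiltered, 0 with a 12 h term or the balance, and 1 to 6 without 1 time point. Higher in the dark (4 each): 1 in nuclear exons and 1 in nuclear introns with the balance, where 1 was lower in each, and 2 to 4 in nuclear exons without 1 time point.

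The ratio of nuclear to total exons (4 lower, 1 higher) gave 0 lower unfiltered, 8 lower and 0 higher unscaled, 0 and 0 with intron share or the balance, and 0 to 8 lower and 0 to 1 higher without 1 time point. Unscaled, the median difference of this ratio over all genes was -0.21. With the time point as a replicate block it gave 1 lower and 0 higher, and in nuclear exons the block gave 5 lower, with Apom joining (limma adjusted p = 0.0453). The block changed the count of no other genotype comparison. The ratio of total exons to nuclear introns (1 lower) gave 0 with intron share or the balance and 0 to 1 higher without 1 time point.

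With the balance as a covariate the sign of called differences turned in nuclear exons for Apoa1 (0.030) and Apoe (0.21), in total introns for Apoc1 (-0.018, and -0.055 with intron share), in the dark for Apoc1 (-0.030) and Apom (-0.093) in nuclear exons, and in the nuclear over total ratio for Apoa1 (0.26), Apoa4 (0.39), Apoa5 (0.042) and Apoc3 (0.32). Among differences that were not called it also turned in nuclear exons for Apoa2, Apoc1, Apoc3 and Apom (0.13 to 0.22) and in the nuclear over total ratio for Apoa2, Apoc1, Apoe and Apom (0.35 to 0.55). Depth limits the nuclear values of Apoa4, whose introns had a median of 7.5 reads in wild type. The order of the members' levels changed no call under other scalings.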
